A study of Mus musculus with 108 samples.

Results

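The genes described here form the switch that starts meiotic maturation in mouse oocytes: Cdk1, its B-type cyclins Ccnb1, Ccnb2 and Ccnb3, the Cdc25 phosphatases Cdc25a, Cdc25b and Cdc25c, and the inhibitory kinases Wee1, Wee2 and Pkmyt1. They were chosen by name, through the Ensembl mouse gene IDs that carry these symbols, and all 10 were found among the 55573 gene IDs of the gene count files. The study sequenced RNA of single oocytes from mice that lack Exosc10 in the oocyte (an oocyte-specific knockout, called cKO) and from control mice. Exosc10 encodes a 3′ to 5′ exoribonuclease of the RNA exosome. The strain, the age of the females, the Cre driver and the alleles that the controls carried are not given in the sources used here. Oocytes were taken at the germinal vesicle stage (GV), after 3 h of ex vivo culture in M2 medium (GV+3hr in the labels, GV3h here) and as metaphase II eggs (MII) from the oviducts.

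Messenger RNA was read with oligo(dT) selection (polyA libraries, all 3 stages) or without it, from total RNA primed with random hexamers and freed of ribosomal RNA (RiboMinus libraries, GV and MII). The polyA groups held 7 GV control oocytes from 2 females, 15 GV cKO oocytes from 2, 8 GV3h control oocytes from 3, 11 GV3h cKO oocytes from 3, 8 MII control eggs from 3 and 15 MII cKO eggs from 3. The RiboMinus groups held 8 GV control oocytes from 2 females, 7 GV cKO oocytes from 2, 4 MII cKO eggs from 2 and 3 MII control eggs from 1 female, V1145. In every contrast with the RiboMinus MII controls, genotype or stage cannot be told apart from that female. Oocytes of 1 female are not independent, so the female was the replicate in the tests of stage, genotype and library type, and each oocyte as a replicate was tried as an alternative.

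CDK1 bound to a B-type cyclin is the kinase known as maturation promoting factor, which drives breakdown of the germinal vesicle and entry into meiosis. WEE1, WEE2 and PKMYT1 hold it inactive by phosphorylating CDK1 near its ATP-binding site, and the CDC25 phosphatases remove those phosphates. In mouse oocytes WEE2 is the oocyte-specific inhibitory kinase of prophase arrest, CDC25B is needed for the oocyte to resume meiosis, and cyclin B3 is needed for anaphase of the first division. A fully grown oocyte transcribes almost no RNA, and stored messages are lengthened or shortened at their poly(A) tails in the cytoplasm. Sequence elements near the 3′ end take part in that control: the polyadenylation signal AATAAA or ATTAAA, and the U-rich cytoplasmic polyadenylation element.

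Because oligo(dT) selection acts on the 3′ end, the signal is shown here for the 4 genes whose change from GV to MII differed between library types in controls (Cdk1, Ccnb1, Ccnb2 and Cdc25b) and for Wee2, the most abundant of the 10 per kilobase. Each line is a stretch that ends 1 to 10 bases before the end of the annotated transcript in GRCm38 (GENCODE M21), written 5′ to 3′ in the sense of the gene. Capitals mark the polyadenylation signal and, for Wee2, also the element TTTTAT.
Cdk1, chr10:69335156-69335185, minus strand: ctaatggcacggAATAAAaggattattcac
Ccnb1, chr13:100778656-100778685, minus strand: ctttatgttgctAATAAAcatagttttcga
Ccnb2, chr9:70407693-70407722, minus strand: gtattgaaggaaAATAAAgctattgatcta
Cdc25b, chr2:131198463-131198492, plus strand: gggccttggttcAATAAAgcactgagcaag
Wee2, chr6:40466780-40466809, plus strand: tcattgtaAATAAAgaTTTTATcttatcca
All 10 genes had AATAAA or ATTAAA on the sense strand in the last 100 bases of the annotated 3′UTR, as did 78.8% of 19358 protein-coding genes. The letters TTTTAT or TTTTAAT, searched on the sense strand in the same window, were found in 2 of the 10, Ccnb3 (68 bases from the end) and Wee2 (46 and 18 bases from the end), and in 17.9% of all genes. Cdk1 (with a 3′UTR of 3352 bases), Ccnb1 (1028 bases) and Cdc25b did not have these letters in that window. The annotated ends may differ from those used in oocytes, and tail lengths were not measured.

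The gene totals in M (mega) counts were 4.64 to 8.74 per polyA library and 12.3 to 62.7 per RiboMinus library, and 0 pairs of libraries were identical. Reads in the summary lines of the files, which count for no gene, made up 12.8 to 16.985% in polyA GV and GV3h libraries and 8.43 to 9.67% in polyA MII libraries, without overlap. In RiboMinus libraries they made up 13.4 to 14.3% in MII controls and 10.7 to 11.7% in MII cKO, and 10.6 to 14.6% at GV. The part of this share in the stage and genotype results was not tested. Exosc10 was low in every library labelled cKO: it stood at 0 to 4.44 CPM (counts scaled to a library total of 1 M) per polyA cKO oocyte against 43.0 to 166 CPM in polyA controls, and at 0.446 to 8.29 CPM in RiboMinus cKO against 84.9 to 162 CPM in RiboMinus controls. All 8 oocyte markers were detected in every group, with summed levels of 5603 to 22133 CPM. The 10 markers of granulosa and cumulus cells summed to 68.4 to 199 CPM per oocyte, and in each group 7 to 10 of them had a count. Per oocyte the sum was 82.1 to 101.6 CPM in polyA GV controls and 102.6 to 173 CPM in polyA MII controls. In RiboMinus libraries it was 105 to 136 CPM in GV controls, 97.4 to 199 CPM in GV cKO, 152 to 168 CPM in the MII controls (V1145) and 68.4 to 107 CPM in MII cKO. The highest of the 10 in each group was Cyp19a1 (3 groups) or Nr5a2 (7 groups), with medians of 37.2 to 128 CPM. Ptx3 was at 0 in every oocyte of 8 groups, Foxl2 of 3 and Amh of 2, and Fshr and Inha of 1 each. Their part in the results below was not tested.

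The 10 genes lie at separate loci, given here in GRCm38 from the GENCODE annotation. Cdk1 (ENSMUSG00000019942) spans chr10:69335146-69352938. The cyclins are Ccnb1 (ENSMUSG00000041431, chr13:100778650-100786570), Ccnb2 (ENSMUSG00000032218, chr9:70407692-70421547) and Ccnb3 (ENSMUSG00000051592, chrX:6979652-7041619). The phosphatases are Cdc25a (ENSMUSG00000032477, chr9:109875579-109893895), Cdc25b (ENSMUSG00000027330, chr2:131186949-131198497) and Cdc25c (ENSMUSG00000044201, chr18:34732993-34751533). The inhibitory kinases are Wee1 (ENSMUSG00000031016, chr7:110122046-110143286), Wee2 (ENSMUSG00000037159, chr6:40439088-40466813) and Pkmyt1 (ENSMUSG00000023908, chr17:23726336-23736735). The pseudogenes Ccnb1-ps and Ccnb2-ps, which may share reads with the cyclins, had at most 178 and 20 counts in any oocyte.

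Every member was detected in every oocyte, and all 10 passed the filter on low counts in both library types. The lowest count of a member in any oocyte was 1, for Ccnb3 in a GV cKO oocyte. Levels below are CPM after TMM scaling, which sets each library relative to the bulk of its genes. The files used here held 0 lines of the spike-in RNA, so an amount per oocyte was not available, and a fall of 1 message and a rise of the others cannot be told apart. PolyA and RiboMinus values were scaled separately, and values of single oocytes separately from sums per female.

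**Figure D1:**
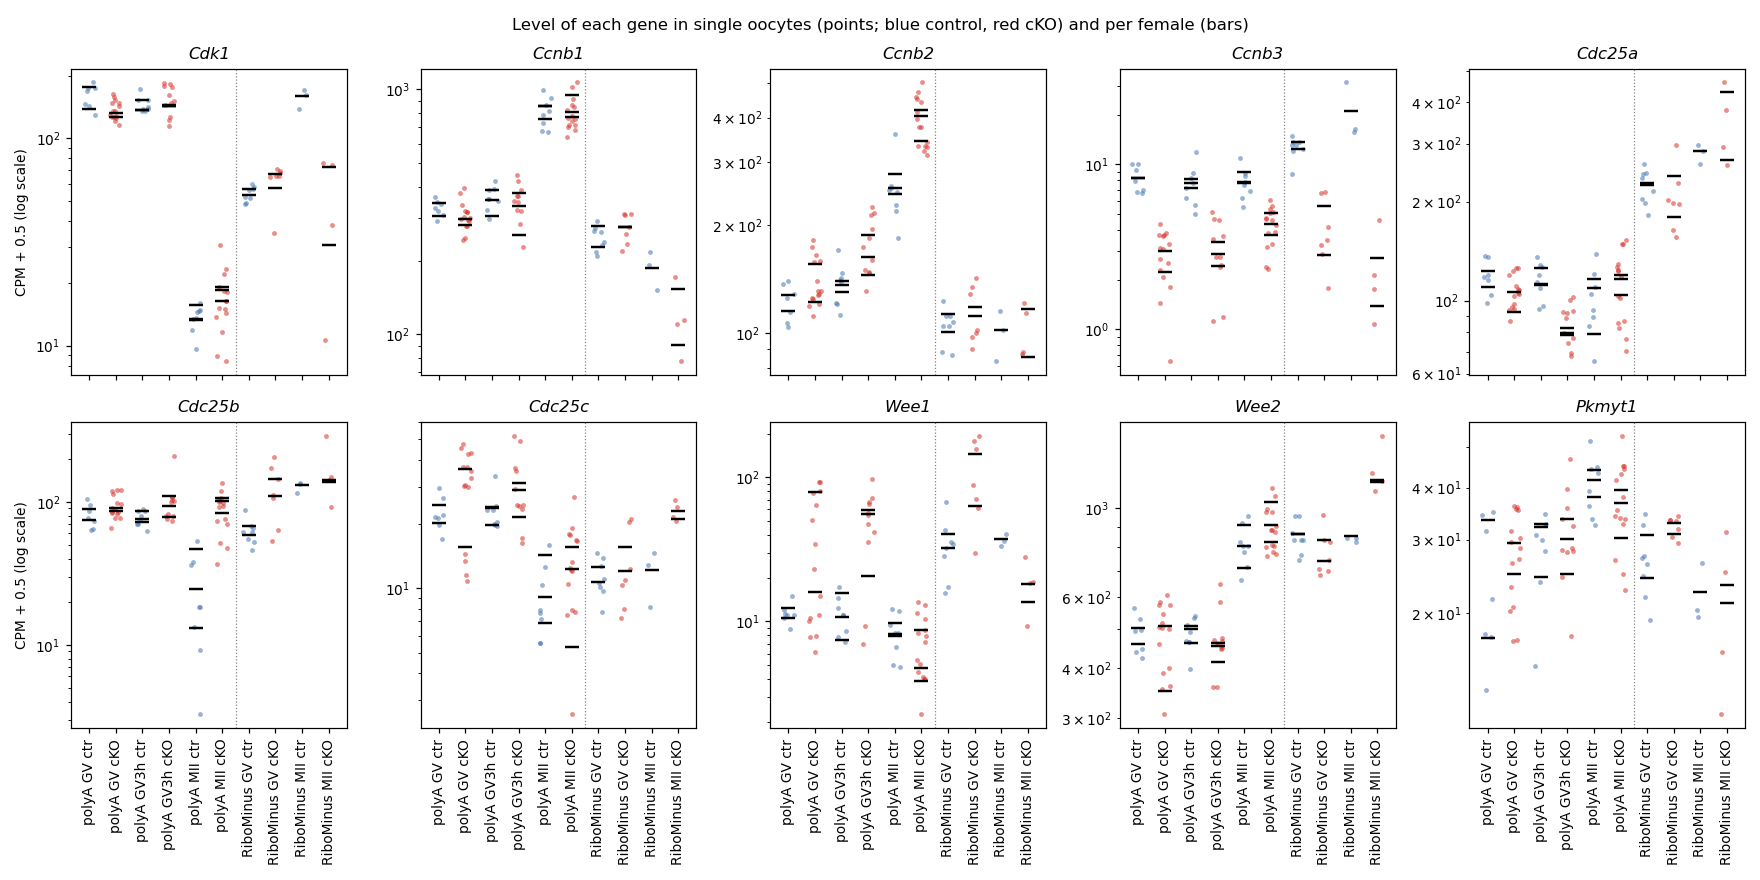
Level of each of the 10 genes in single oocytes (points, blue control and red cKO) and in the sum per female (black bars), on a log axis of CPM + 0.5, for the 6 polyA groups to the left of the dotted line and the 4 RiboMinus groups to its right. In polyA libraries Cdk1 lay at 114 to 185 CPM in every GV and GV3h oocyte and at 7.92 to 29.9 CPM in every MII egg, while Ccnb1, Ccnb2 and Wee2 were higher at MII.

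Per kilobase of exon, Wee2 was the most abundant of the 10 in GV controls, at 153 ± 10.1 CPM per kb (SD, n = 2 females) in polyA libraries and 275 ± 0.241 in RiboMinus libraries. Ccnb2 (79.1 ± 5.81 CPM per kb in polyA GV controls) and Ccnb1 (76.7 ± 6.19) followed at levels that did not differ beyond their spread. Cdk1 itself stood at 31.8 ± 5.36 CPM per kb, Cdc25b at 21.7 ± 2.72 and Cdc25a at 14.5 ± 1.19. Pkmyt1 (6.86 ± 3.12), Cdc25c (4.44 ± 0.622), Wee1 (3.21 ± 0.359) and Ccnb3 (1.71 ± 0.00136 CPM per kb) were the 4 lowest.

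Within each family 1 or 2 genes made up most of the level per kilobase. Wee2 formed 93.8% of the inhibitory kinases in polyA GV controls and 94.9% in polyA MII controls, while Wee1 formed 1.97% and 0.895%. In cKO oocytes the Wee1 share was 9.37% at GV (2.62 and 16.1% in the 2 females) and 8.01% at GV3h (3.76 to 10.8%), against 1.19 to 2.54% in GV3h controls. Ccnb1 and Ccnb2 together made up nearly all of the B cyclins, and Ccnb3 formed 1.09% in polyA GV controls and 0.292% in polyA GV cKO. In the Cdc25 family Cdc25b formed 53.4% in polyA GV controls (49.5 and 57.3%), 32.5% in MII controls (18.6 to 51.7%) and 61.3% in MII cKO eggs (56.1 to 63.9%). In RiboMinus libraries its share went the other way in controls, from 35.6% at GV to 48.1% in the MII female, and it was 54.2% in GV cKO and 44.6% in MII cKO females (39.0 and 50.2%).

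**Figure D2:**
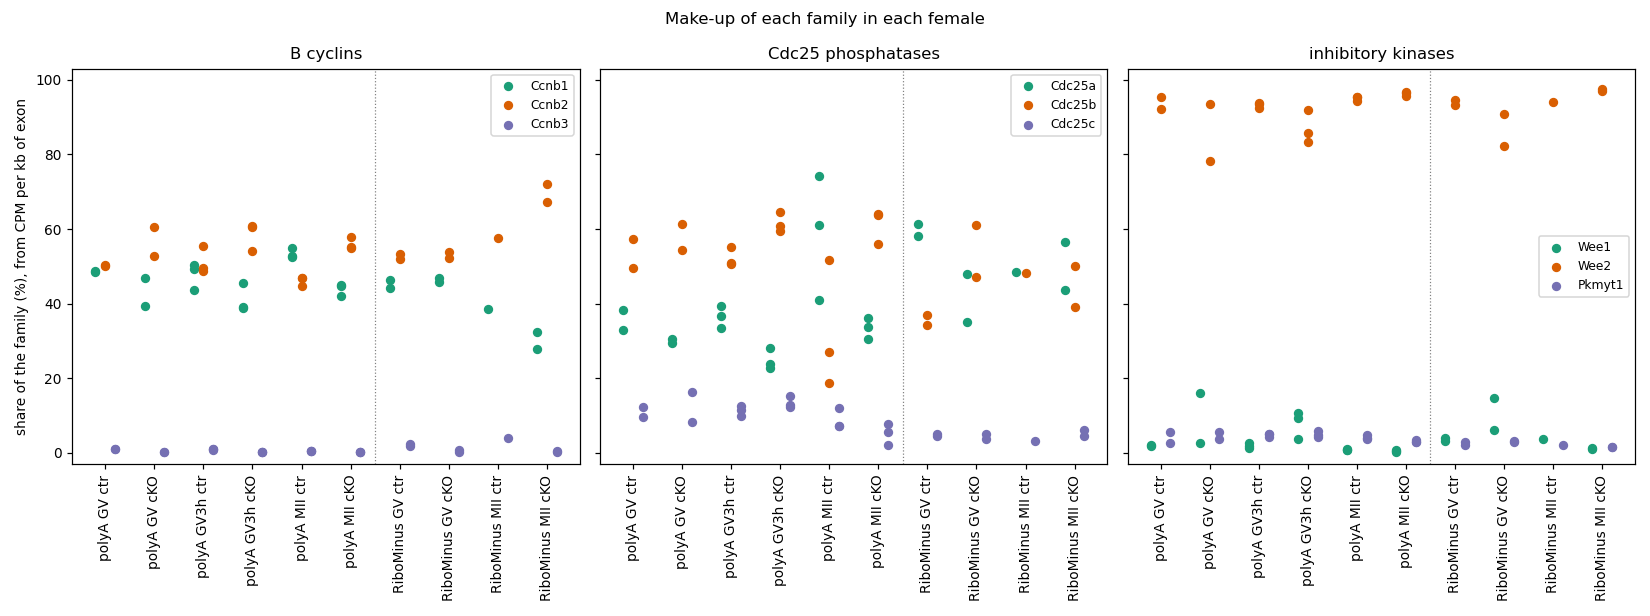
Share of each gene in its family (B cyclins, Cdc25 phosphatases, inhibitory kinases), in percent of the family's summed CPM per kb of exon, with 1 point per female and gene. Wee2 held 78.3 to 97.5% of its family in every female, and Cdc25b held 18.6 to 51.7% in polyA MII controls against 56.1 to 63.9% in polyA MII cKO.

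The first question was how the switch changed from the arrested oocyte to the egg. The stages came from different females, and MII eggs were taken from the oviducts. Differences are log2 values ± SE from edgeR's quasi-likelihood test on counts summed per female, and called means a p under 0.05 after Benjamini-Hochberg adjustment over all genes tested. The 16 polyA females entered 1 fit of 19242 genes and the 7 RiboMinus females another of 25425 genes. No member was called between GV and GV3h in controls, where 0.0% of all genes were called, or in cKO oocytes, also 0.0%. In edgeR's quasi-likelihood test 0 of the 10 had an unadjusted p under 0.05 in either genotype (2.21% and 1.94% of all genes), and DESeq2 called 0 in both (0.0833% and 0.0885%). The stage differences of the members over those 3 h lay between −0.14 (Cdk1) and 0.23 (Pkmyt1) in controls and between −0.31 (Cdc25a) and 0.25 (Ccnb2) in cKO.

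From GV to MII, 7 of the 10 members were called in polyA control libraries, 4 higher and 3 lower, where 42.5% of all genes were called. The count was also 7 in polyA cKO libraries, 4 higher and 3 lower, where 44.7% were called. The median member difference was −0.11 in controls, beside a median of −0.26 over all genes, and 0.29 in cKO, beside −0.33.

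Cdk1, the catalytic subunit, fell most in controls. Its polyA level was 138 and 176 CPM in the 2 GV control females and 15.3, 12.98 and 12.8 CPM in the 3 MII control females, with no overlap between single oocytes of the stages. That was a log2 difference of −3.52 ± 0.15 (11.5-fold lower, adjusted p = 2.39e-10). In cKO females it went from 126 and 132 CPM at GV to 18.1, 18.7 and 15.9 CPM at MII, a difference of −2.88 ± 0.15 (7.38-fold lower, adjusted p = 2.91e-09).

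The cyclins moved the other way. Ccnb1, the main partner of CDK1 in mouse oocytes, rose from 305 and 342 CPM in the GV control females to 856.7, 856.03 and 756 CPM in the MII control females (1.35 ± 0.17, adjusted p = 8e-06). Its level rose to a like degree in cKO, from 278 and 297 CPM to 768, 945 and 806 CPM (1.55 ± 0.17, adjusted p = 2.5e-06). Ccnb2, which can stand in for Ccnb1 in oocytes, rose from 115 and 127 CPM to 277, 253 and 244 CPM in controls (1.09 ± 0.15, adjusted p = 2.66e-05). In cKO it rose from 155 and 122 CPM to 344, 420 and 404 CPM (1.49 ± 0.16, adjusted p = 1.52e-06). The highest GV female was below the lowest MII female for both cyclins in both genotypes. The ratio of Cdk1 to Ccnb1 per kilobase was 0.39 and 0.44 in the GV control females and 0.01 to 0.02 in the MII control females.

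In polyA libraries Ccnb3 was near 8 CPM at both stages in controls, at 7.81 ± 0.00623 CPM (SD, n = 2 females) at GV and 7.68 ± 0.703 CPM (n = 3) at MII. The difference was −0.03 ± 0.32 in edgeR's quasi-likelihood test (adjusted p = 0.969). In cKO females it stood at 2.09 ± 0.545 CPM (n = 2) at GV and 3.88 ± 0.673 CPM (n = 3) at MII, with a difference of 0.88 ± 0.33 in edgeR's quasi-likelihood test (adjusted p = 0.0395). That call was lost under 6 of 11 alternatives, among them without female V857 (0.64, adjusted p = 0.264), V841 (0.76, adjusted p = 0.104) or V897 (0.89, adjusted p = 0.0689).

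Of the phosphatases, Cdc25b fell in controls, from 88.1 and 73.7 CPM at GV to 46.1, 12.7 and 23.9 CPM at MII (−1.56 ± 0.34, adjusted p = 0.00129). The 8 MII control eggs ran from 2.77 to 52.5 CPM with a median of 17.8 CPM, below all 7 GV control oocytes (63.4 to 104 CPM). Without V836, the MII control female with the highest level, the fall was −2.16 (adjusted p = 9.96e-06). In cKO oocytes Cdc25b was at 86.0 and 90.3 CPM at GV and 105, 101 and 83.2 CPM at MII, a difference of 0.13 ± 0.34 (adjusted p = 0.791). The exons of Cdc25b overlap those of Spef1 on the other strand by 92 bases, and the strand setting of the counting is not given in the sources used here.

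Cdc25c was called lower at MII in both genotypes, at −1.19 ± 0.43 in controls (adjusted p = 0.0354) and −1.25 ± 0.42 in cKO (adjusted p = 0.0247). Its level was 19.7 and 24.0 CPM in GV control females and 8.6, 6.4 and 13.9 CPM in MII control females. The calls were lost under 5 of 11 alternatives in controls and 3 of 11 in cKO. In controls the adjusted p rose to 0.0723 without V856, 0.181 without V889, 0.0836 without V836 and 0.12 without V853, and was 0.0503 with DESeq2 size factors. In cKO, without V888 the difference was −0.51 (adjusted p = 0.432), without V841 it was −0.91 (adjusted p = 0.0828), and with only the groups compared it was −1.28 (adjusted p = 0.0907). The 2 GV cKO females themselves stood at 15.2 (V857) and 35.6 CPM (V888). Cdc25c exons overlap those of Gm3550 by 623 bases on the other strand. Cdc25a, the remaining phosphatase, was not called in either genotype (−0.20 ± 0.16 and 0.19 ± 0.16), though with library totals in place of TMM scaling the control difference was −0.63 (adjusted p = 0.0053).

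Among the inhibitory kinases Wee2 rose at MII. It went from 459 and 504 CPM in the GV control females to 711, 908 and 807 CPM at MII (0.75 ± 0.16, adjusted p = 0.00134), and from 350 and 509 CPM to 822, 1037 and 907 CPM in cKO (1.10 ± 0.16, adjusted p = 4.85e-05). With library totals in place of TMM scaling the control difference was 0.32 (adjusted p = 0.121). That scaling moved the median of all genes to −0.69 in controls and −0.86 in cKO. Pkmyt1, the membrane-bound member of the family, was called higher in controls (0.71 ± 0.26, adjusted p = 0.04) and stood at 0.39 ± 0.26 in cKO (adjusted p = 0.238). The control call was lost under 5 of 11 alternatives, among them without V889 (0.34, adjusted p = 0.409), V836 (0.70, adjusted p = 0.067) or V853 (0.66, adjusted p = 0.0897). Pkmyt1 exons overlap those of Paqr4 by 319 bases on the other strand.

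Wee1 was low at both stages in controls, at 11.8 and 10.1 CPM at GV and 9.3, 7.4 and 7.7 CPM at MII (−0.43 ± 0.57, adjusted p = 0.578). In cKO females it was 78.4 (V857) and 15.5 CPM (V888) at GV and 4.2, 3.4 and 8.3 CPM at MII, a fall of −3.11 ± 0.57 (adjusted p = 0.000368). The size of that fall depended on the female, at −1.51 (adjusted p = 0.0355) without V857 and −3.85 (adjusted p = 2.06e-05) without V888.

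**Figure D3:**
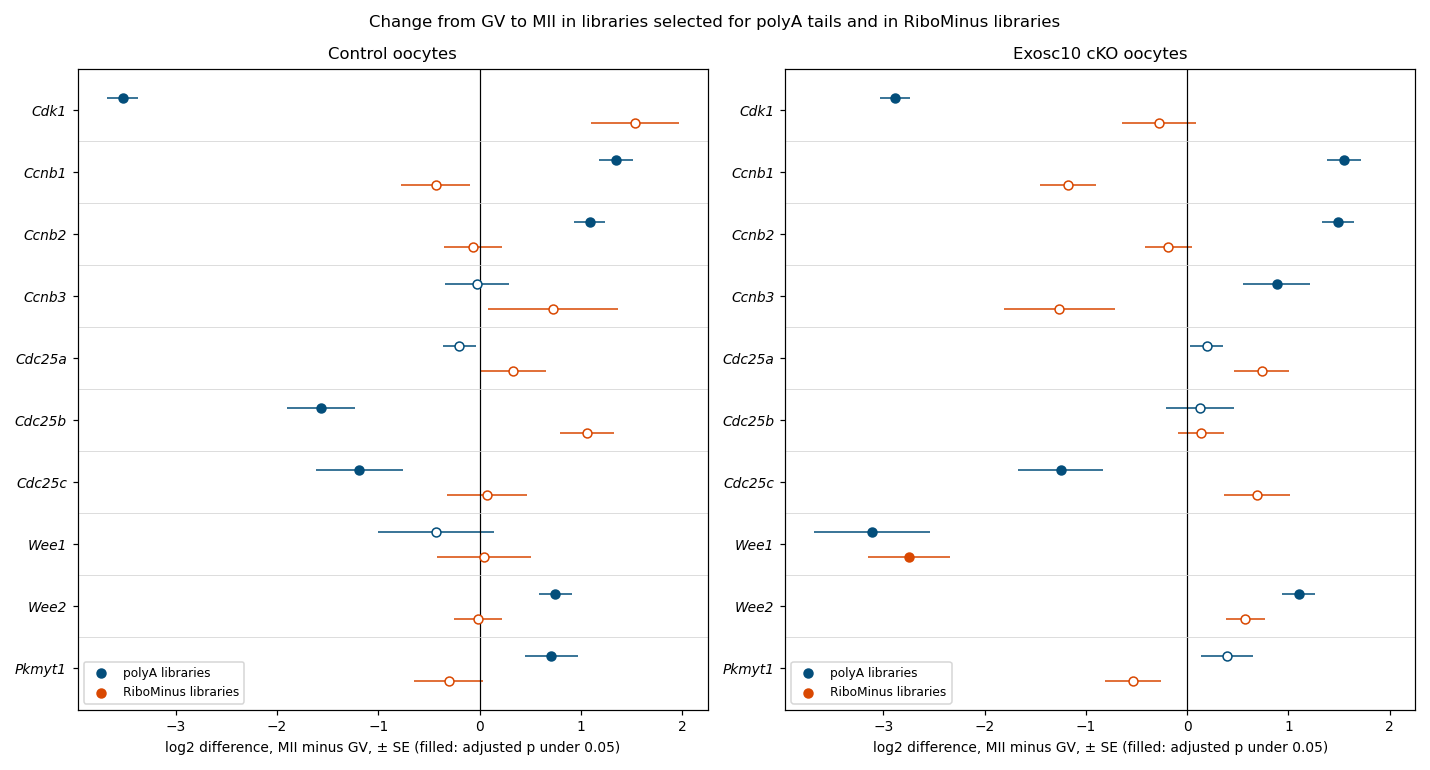
Difference from GV to MII of each gene (log2, MII minus GV, with its SE as the bar) in control oocytes (left) and Exosc10 cKO oocytes (right), in polyA libraries (blue) and RiboMinus libraries (orange). Filled points had an adjusted p under 0.05. In controls Cdk1 stood at −3.52 in polyA libraries and 1.53 in RiboMinus libraries, and Ccnb1 at 1.35 and −0.43.

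RiboMinus libraries, made without selection on the tail, gave another picture of the same stages. In controls 0 of 10 members were called from GV to MII in edgeR's quasi-likelihood test, where 0.00787% of all genes were called. There, 2 members had an unadjusted p under 0.05, Cdk1 and Cdc25b, as had 15.1% of all genes. DESeq2 called both (adjusted p = 0.032 and 0.0243) and 6.08% of all genes. The fit of only the groups compared, with V1145 alone at MII, also called both and Ccnb3 (0.728), with 27.9% of all genes. Ccnb3 was at 13.2 and 11.9 CPM in the GV control females and 20.7 CPM in V1145. In the quasi-likelihood fit of all RiboMinus females its difference was 0.725 (adjusted p = 0.614). Cdk1 was at 52.9 and 56.7 CPM in the GV control females and 159 CPM in V1145 (1.53 ± 0.44, adjusted p = 0.168). The 3 eggs of V1145 ran from 138 to 170 CPM, above all 8 GV control oocytes (47.8 to 60.0 CPM). The somatic marker sum was also higher in those eggs (152 to 168 against 105 to 136 CPM). Nr5a2 alone had a median of 128 CPM in them against 70.6 CPM at GV, while Amh, Foxl2 and Ptx3 were at 0 in them. The part of these markers was not tested. Cdc25b was at 67.2 and 58.2 CPM at GV and 131 CPM in V1145 (1.06 ± 0.27, adjusted p = 0.141). Ccnb1 stood at 228 and 277 CPM and at 187 CPM (−0.43 ± 0.34, adjusted p = 0.577), and Ccnb2 at 100 and 113 CPM and at 101.8 CPM (−0.06 ± 0.28, adjusted p = 0.969).

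In RiboMinus cKO libraries 1 member, Wee1, was called from GV to MII, where 2.32% of all genes were called. In edgeR's quasi-likelihood test 5 had an unadjusted p under 0.05 (20.3% of all genes), and DESeq2 called 3 (11.5% of all genes). Wee1 was at 62.6 (V1126) and 143 CPM (V1131) at GV and 13.2 and 17.6 CPM at MII (−2.74 ± 0.41, adjusted p = 0.0254). The adjusted p was 0.0689 without V1131 (−2.03), 0.0818 without V1166 (−2.54), 0.121 with only the groups compared (−2.72) and 0.0707 (−2.23) without the deepest library, an egg of V1166 with 62.7 M counts. Ccnb1 stood at 275 CPM in both GV cKO females and at 153 and 90.4 CPM at MII (−1.17 ± 0.28, adjusted p = 0.0648). DESeq2 called this fall (−1.12, adjusted p = 0.00691), as did the fit with no filter on low counts (−1.15, adjusted p = 0.000767). Wee2 stood at 0.58 ± 0.20 (adjusted p = 0.152), and DESeq2 called it (0.63, adjusted p = 0.027). Cdk1 varied between the 2 MII cKO females, at 30.04 CPM in V1166 and 72.4 CPM in V1167, against 57.0 and 67.1 CPM at GV (−0.28 ± 0.37, adjusted p = 0.707).

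The difference between library types was tested itself, as an interaction of stage and library type in 1 fit of the 17 GV and MII females (26653 genes). A negative value means that the GV to MII change was lower in polyA than in RiboMinus libraries. In controls 4 of 10 members were called, where 16.8% of all genes were called: Cdk1 (−4.88 ± 0.45, adjusted p = 8.41e-07), Cdc25b (−2.45 ± 0.53, adjusted p = 0.00288), Ccnb1 (1.95 ± 0.35, adjusted p = 0.000604) and Ccnb2 (1.33 ± 0.33, adjusted p = 0.00735). In cKO 4 of 10 were called, where 13.9% of all genes were called: Cdk1 (−2.52 ± 0.41, adjusted p = 0.000404), Ccnb1 (2.81 ± 0.31, adjusted p = 1.82e-05), Ccnb2 (1.77 ± 0.29, adjusted p = 0.000385) and Ccnb3 (2.23 ± 0.71, adjusted p = 0.0415). Cdc25b stood at 0.07 ± 0.48 in cKO (adjusted p = 0.992), and at −0.52 without the deepest library (adjusted p = 0.584). The median over all genes was 0.02 in controls and −0.34 in cKO, and Wee1 was near 0 in both (−0.29 ± 0.82 and −0.22 ± 0.73).

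For Cdk1, Ccnb1 and Ccnb2 the stage change was thus called in polyA libraries. In RiboMinus libraries the joint edgeR fit of female sums with the low-count filter did not call it. Some alternatives did: for Cdk1 in controls, DESeq2 and edgeR with only the groups compared, no filter, or each oocyte as a replicate. For Ccnb1 in cKO, these were DESeq2 and edgeR with no filter or each oocyte as a replicate. The change of these 3 genes differed between the library types past the threshold in both genotypes. For controls the RiboMinus side rests on V1145. The library types also differed in priming, library preparation and females, which cannot be told apart from the selection on tails. The Cdk1 interaction in cKO was −1.74 without V1167 (adjusted p = 0.00183), and the Cdc25b interaction in controls was −3.04 without V836 (adjusted p = 5.13e-05). Ccnb2 in controls lost its call with library totals in place of TMM scaling (0.79, adjusted p = 0.0735). In cKO that scaling moved the values of Cdk1 to −3.17, Ccnb1 to 2.21 and Ccnb2 to 1.16, all still called. The call of Ccnb3 in cKO was lost under 10 of 16 alternatives, with values from 1.58 without V1126 (adjusted p = 0.211) to 3.03 without V1166 (adjusted p = 0.0105, still called).

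The second question was how the switch differed between cKO and control oocytes at each stage. In polyA libraries 1 of 10 members was called at GV (7.38% of all genes were called), 3 of 10 at GV3h (25.2% of all genes) and 3 of 10 at MII (18.9% of all genes). In RiboMinus libraries 0 of 10 were called at GV (0.0315% of all genes) and 1 of 10 at MII (7.3% of all genes). At RiboMinus GV, edgeR's quasi-likelihood test gave 3 members an unadjusted p under 0.05 (14.7% of all genes), and DESeq2 called 3 (6.19% of all genes). The median member difference in polyA libraries was −0.03 at GV, −0.00 at GV3h and 0.16 at MII, and in RiboMinus libraries it was 0.15 at GV and −0.01 at MII. Over all genes it was 0.08, 0.07, 0.12, 0.04 and 0.25 in the same order.

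Ccnb3 was called lower in cKO in 4 of the 5 contrasts. In polyA libraries it was at 7.8 and 7.8 CPM in the GV control females against 1.7 and 2.5 CPM in the GV cKO females, and all 15 cKO oocytes (0.139 to 3.88 CPM) lay below all 7 controls (6.24 to 9.62 CPM). The difference was −1.89 ± 0.36 at GV (adjusted p = 0.00832), −1.59 ± 0.30 at GV3h (adjusted p = 0.0013) and −0.98 ± 0.29 at MII (adjusted p = 0.0285). At GV3h 10 of 11 cKO oocytes lay below all controls, and at MII 13 of 15 eggs did. In RiboMinus libraries all 7 GV cKO oocytes (1.28 to 6.33 CPM) were below all 8 controls (8.29 to 14.4 CPM), with a difference of −1.76 ± 0.55 that was not called (adjusted p = 0.219, and 0.0267 in DESeq2). At RiboMinus MII the cKO females stood at 2.2 and 0.9 CPM against 20.7 CPM in V1145 (−3.75 ± 0.65, 13.4-fold lower, adjusted p = 0.0202). The somatic marker sum was also lower in those cKO eggs (68.4 to 107 against 152 to 168 CPM), with Nr5a2 medians of 63.3 and 128 CPM. The part of these markers was not tested.

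These Ccnb3 levels rest on few counts, with 43 to 274 counts per female in polyA cKO groups. The GV call was lost without V857 (−1.66, adjusted p = 0.0593) or V889 (−1.88, adjusted p = 0.0772) and when the 2 GV groups were fitted alone (−1.91, adjusted p = 0.151). The MII call was lost under 5 of 12 alternatives: with no filter on low counts (−0.97, adjusted p = 0.215), with only the groups compared (adjusted p = 0.0601), and without V842 (−0.87, adjusted p = 0.0926), V897 (−0.98, adjusted p = 0.07) or V836 (−0.91, adjusted p = 0.0604). The RiboMinus MII call was lost without the deepest library (−3.15, adjusted p = 0.0659). Without V1166 the value was −4.54 (adjusted p = 0.025), which sets 1 female against 1 and takes its spread from the GV groups. At GV3h the call held under all 12 alternatives, from −1.75 to −1.37.

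Ccnb2 was called higher in cKO at polyA MII, at 344, 420 and 404 CPM against 277, 253 and 244 CPM in the controls (0.59 ± 0.13, 1.51-fold, adjusted p = 0.00636). The lowest cKO female was above the highest control female, and the call held under all 12 alternatives. At polyA GV and GV3h its difference was 0.19 ± 0.16 (adjusted p = 0.512) and 0.29 ± 0.13 (adjusted p = 0.123, and 0.00769 with library totals), and in RiboMinus libraries it was 0.10 ± 0.23 at GV and −0.02 ± 0.28 at MII. Ccnb1 was called in no genotype contrast, with differences of −0.17 ± 0.18, −0.11 ± 0.14 and 0.03 ± 0.14 in polyA libraries and 0.12 ± 0.27 and −0.62 ± 0.33 in RiboMinus libraries.

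Cdk1 was called in no genotype contrast. Its difference was −0.28 ± 0.16 at polyA GV, 0.01 ± 0.13 at GV3h and 0.36 ± 0.14 at MII, where the adjusted p was 0.0788, and 0.0283 with library totals in place of TMM scaling. At RiboMinus MII all 4 cKO eggs (10.1 to 75.6 CPM) were below the 3 eggs of V1145 (138 to 170 CPM), with a difference of −1.63 ± 0.44 (adjusted p = 0.0565). DESeq2 called it (−1.57, adjusted p = 0.0115). Without V1167 it was −2.40, again 1 female against 1 with the spread of the GV groups. V1167 itself stood at 72.4 CPM and V1166 at 30.04 CPM, against 159 CPM in V1145. The somatic marker sums of these eggs, which differed in the same direction, are given with Ccnb3 above.

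Cdc25b was the phosphatase with the largest genotype difference. At polyA MII it was at 105, 101 and 83.2 CPM in the cKO females against 46.1, 12.7 and 23.9 CPM in the controls (1.81 ± 0.31, 3.52-fold higher, adjusted p = 0.00117). Of the 15 cKO eggs (36.0 to 135 CPM), 12 lay above all 8 control eggs (2.77 to 52.5 CPM). The call held under all 12 alternatives, at 1.46 to 2.41, with the highest value without V836. At polyA GV and GV3h its difference was 0.12 ± 0.37 and 0.26 ± 0.30, with adjusted p of 0.885 and 0.563.

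In RiboMinus libraries Cdc25b at GV was at 109 and 145 CPM in cKO females against 67.2 and 58.2 CPM in controls (1.02 ± 0.23, adjusted p = 0.122). The 3 oocytes of V1126 were at 52.5, 63.3 and 173 CPM, so its level rested on 1 library and the other 2 lay within the range of the 8 controls (45.6 to 87.1 CPM). All 4 oocytes of V1131 (104.97 to 205 CPM) lay above the controls. The adjusted p was 0.0326 without V1126 (1.21) and 0.00397 in DESeq2 (1.04). At RiboMinus MII Cdc25b was at 137 and 142 CPM in cKO and 131 CPM in V1145 (0.09 ± 0.28, adjusted p = 0.853). The 2 eggs of V1166 were at 90.9 CPM, in the deepest library, and 290 CPM. Without the deepest library the difference was 0.68 (adjusted p = 0.344).

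Cdc25a was called lower in cKO at GV3h, at 82.1, 79.1 and 78.1 CPM against 111, 125 and 112 CPM in controls, with no overlap between females (−0.54 ± 0.14, 1.45-fold, adjusted p = 0.0128). The call was lost without V982 (−0.48, adjusted p = 0.0576), with library totals in place of TMM scaling (−0.31, adjusted p = 0.13) and with no filter on low counts (−0.49, adjusted p = 0.0686). In the other 4 contrasts its difference lay between −0.23 and 0.29. Cdc25c was called in no genotype contrast, with differences from 0.16 to 0.88. At RiboMinus MII, where it was 0.88 ± 0.41, all 4 cKO eggs (20.2 to 25.5 CPM) lay above the 3 eggs of V1145 (7.67 to 14.1 CPM).

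Wee1 was called higher in cKO at GV3h and varied widely between cKO females. It was at 55.3 (V946), 20.2 (V983) and 58.3 CPM (V993) in cKO against 7.0, 15.2 and 10.3 CPM in controls (2.05 ± 0.53, 4.13-fold higher, adjusted p = 0.0101). Without the control female V951 the difference was 1.81 (adjusted p = 0.0537). Of the 11 cKO oocytes 9 lay above all 8 controls (6.66 to 16.8 CPM), and the exceptions were 2 of the 3 oocytes of V983, at 6.51 and 8.81 CPM beside 46.9 CPM in the other.

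At polyA GV the Wee1 difference was as large but was not called (2.10 ± 0.64, adjusted p = 0.0576). The 5 oocytes of V857 ran from 64.1 to 92.3 CPM, far above the 7 controls (8.41 to 14.5 CPM). The 10 oocytes of V888 ran from 5.62 to 49.6 CPM with a median of 10.3 CPM, and so overlapped the controls. As a sum V888 stood at 15.5 CPM, beside 11.8 and 10.1 CPM in the control females. Without V888, which left V857 alone in its group, the difference was 2.84. DESeq2 with all females gave 2.10 (adjusted p = 0.00691). The same 2 females also differed in Cdc25c (15.2 CPM in V857 and 35.6 CPM in V888) and Wee2 (350 and 509 CPM).

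In RiboMinus libraries Wee1 at GV was at 62.6 (V1126) and 143 CPM (V1131) in cKO females against 40.1 and 31.8 CPM in controls (1.52 ± 0.39, adjusted p = 0.151). Without V1126, which left V1131 alone in its group, the difference was 1.998, and V1126 itself stood nearer the controls. At MII the sign was the other way in both library types, though not called: −0.58 ± 0.52 in polyA (adjusted p = 0.464) and −1.26 ± 0.45 in RiboMinus libraries (adjusted p = 0.115). Wee2 was called in no genotype contrast, with differences of −0.16 ± 0.17, −0.15 ± 0.14 and 0.19 ± 0.14 in polyA libraries and −0.13 ± 0.20 and 0.46 ± 0.24 in RiboMinus libraries. Pkmyt1 was called in none either, with differences between −0.22 and 0.22.

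**Figure D4:**
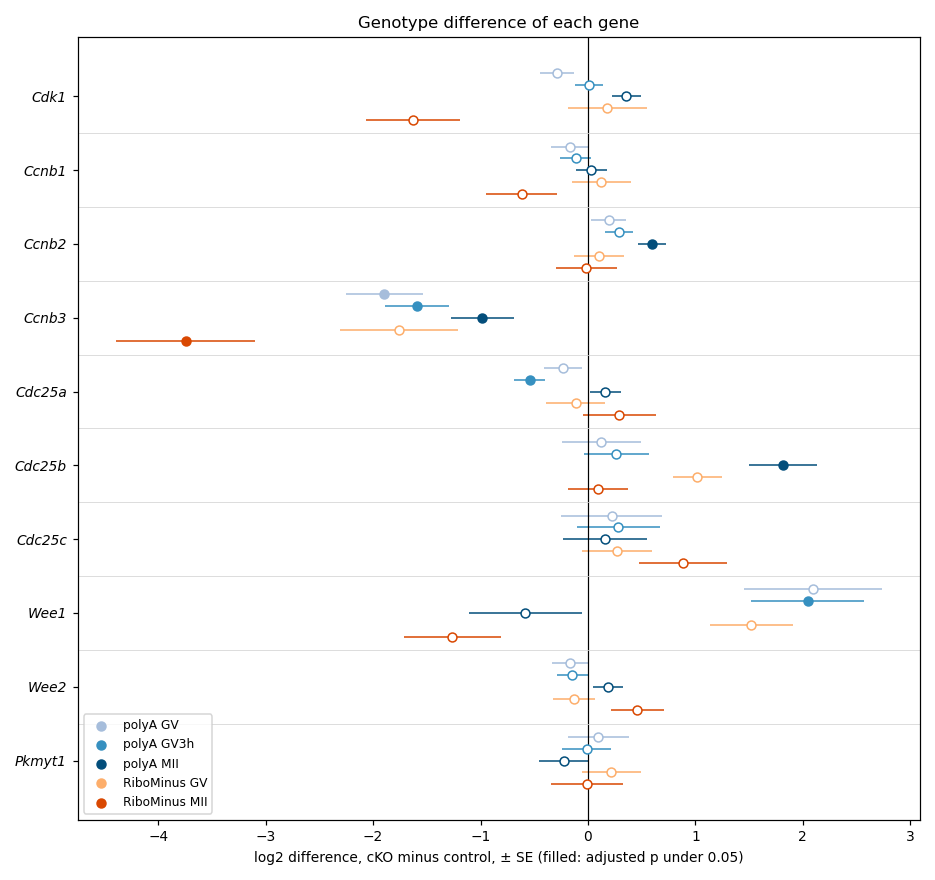
Difference between cKO and control of each gene (log2, cKO minus control, with its SE as the bar) in the 5 contrasts, polyA in blues and RiboMinus in oranges. Filled points had an adjusted p under 0.05. Ccnb3 was below 0 in all 5 contrasts (−0.98 to −3.75), Cdc25b reached 1.81 at polyA MII, and Wee1 was above 0 at GV and GV3h (1.52 to 2.10) and below 0 at MII.

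Whether the stage change itself differed between genotypes was tested as an interaction. For GV to GV3h 0 of 10 members were called (0.0% of all genes), and in edgeR's quasi-likelihood test 0 had an unadjusted p under 0.05 (1.6% of all genes) and DESeq2 called 0 (0.0%). For polyA GV to MII 0 of 10 were called (1.94% of all genes). In edgeR's quasi-likelihood test 3 had an unadjusted p under 0.05 (16% of all genes), and DESeq2 called 2 (5.84% of all genes). These were Cdc25b (1.69 ± 0.48, adjusted p = 0.0847, and 0.0297 in DESeq2), Wee1 (−2.68 ± 0.82, adjusted p = 0.112, and 0.0117 in DESeq2) and Cdk1 (0.64 ± 0.21, adjusted p = 0.134, not called in DESeq2). Cdc25b was called without V836 (2.29, adjusted p = 0.00466). For Wee1 the value was −3.40 without V888, which left V857 alone in the GV cKO group. The cKO fall of Wee1 itself was −1.515 without V857, against −3.11 with all females. So for Cdc25b, whose fall at MII was called in controls and not in cKO, the test of that difference depended on tool and filter. With all females and no filter on low counts, edgeR's quasi-likelihood test called it (1.652, adjusted p = 7.8e-05).

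In RiboMinus libraries the same interaction called 0 of 10 members (0.0% of all genes). In edgeR's quasi-likelihood test 4 had an unadjusted p under 0.05 (14.2% of all genes), and DESeq2 called 1 (4.43% of all genes). These 4 were Wee1 (−2.78 ± 0.59, adjusted p = 0.154, and 0.00389 in DESeq2), Cdk1 (−1.81 ± 0.58, adjusted p = 0.242), Cdc25b (−0.92 ± 0.35, adjusted p = 0.297, and −0.34 without the deepest library) and Ccnb3 (−1.99 ± 0.84, adjusted p = 0.332). For Wee1 the polyA value (−2.68) and the RiboMinus value (−2.78) came from separate sets of females, and neither was called. The RiboMinus value rests on V1145 for the MII controls. The GV cKO females differed widely in both library types (78.4 and 15.5 CPM in polyA, 62.6 and 143 CPM in RiboMinus).

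The other genes of the switch were counted from a list of 22: CDK partners, the CDK-activating kinase, activating kinases, the Greatwall and PP2A module, checkpoint kinases and regulators of the anaphase promoting complex (APC/C). All 22 passed the filter on low counts. In polyA libraries 15 of 22 changed between GV and MII in controls, 8 of them higher and 7 lower, where 42.5% of all genes were called. In cKO it was 17 of 22, 11 higher and 6 lower, where 44.7% were called. Cdc20, an activator of the APC/C that marks cyclin B for destruction, rose by 2.03 in controls and 2.25 in cKO (adjusted p = 2.5e-07 and 1.6e-07). The CDK subunits Cks1b (2.15 and 2.06) and Cks2 (1.51 and 1.84) and the checkpoint kinase Chek1 (1.18 and 1.45) rose in both genotypes, as Ccnb1 did. Fzr1, the APC/C activator of prophase arrest, fell by 2.36 in controls and 1.48 in cKO, and Ccnh, the cyclin of the CDK-activating kinase, fell by 2.60 and 0.77. Of the subunits of PP2A, the phosphatase that opposes CDK1, the scaffold Ppp2r1a was higher (1.57 and 1.59), and the catalytic Ppp2ca (−1.26 and −1.57) and regulatory Ppp2r2d (−1.22 and −1.25) were lower. The other regulatory subunit on the list, Ppp2r2a, was called higher in cKO (0.80). Exons of Ppp2ca overlap those of 9430098F02Rik by 2985 bases on the other strand, and those of Ppp2r2d overlap Mapk1ip1 by 195 bases. In RiboMinus libraries 0 of 22 were called from GV to MII in either genotype, with 4 and 7 at an unadjusted p under 0.05 in edgeR's quasi-likelihood test (15.1% and 20.3% of all genes) and 3 and 5 called by DESeq2 (6.08% and 11.5%). The interaction of stage and library type called 11 of 22 in controls (16.8% of all genes) and 9 of 22 in cKO (13.9% of all genes), with Cdc20 the furthest from 0 in both (5.46 and 3.15).

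Between genotypes, 1 of 22 was called at polyA GV, where 7.38% of all genes were called. At GV3h it was 8 of 22 (4 higher, 4 lower), beside 25.2% of all genes, and at MII 7 of 22 (5 higher, 2 lower), beside 18.9%. Fbxo5, the APC/C inhibitor that protects cyclin B in the oocyte, was lower in cKO at all 3 stages (−0.69, −0.33 and −0.51). Plk1, a kinase that activates CDC25, and Bora, a cofactor in the activation of PLK1, were lower at GV3h (−0.64 and −0.67), as was Cdc20 (−0.46), and Plk1 also at MII (−0.61). Cdk2 was higher at GV3h (0.93). Fzr1 was higher at GV3h (0.79) and MII (1.80), as were Ensa, a substrate of Greatwall kinase (0.83 and 1.23), and the checkpoint kinase Chek2 (1.48 and 1.97). Cdk7 (1.02) and Ccnh (1.70), both of the CDK-activating kinase, were higher at MII. At RiboMinus GV 0 of 22 were called, with 5 at an unadjusted p under 0.05 in edgeR's quasi-likelihood test (14.7% of all genes) and 1 called by DESeq2 (6.19%). At RiboMinus MII 4 of 22 were called, beside 7.3% of all genes: Ccna2 (1.78) and Cdc20 (2.04) higher, Fbxo5 (−1.56) and the CDK-activating kinase subunit Mnat1 (−1.42) lower. Exons of Ccna2 overlap those of Exosc9 by 510 bases on the other strand, and those of Cdc20 overlap Elovl1 by 53 bases. Exons of Plk1 (156 bases), Cdk2 (34), Ccnh (12) and Fzr1 (4) also overlap a gene on the other strand. With the strand setting unknown, reads of such pairs cannot be told apart.

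Genes whose polyA pattern was most like that of a member were named by the Pearson correlation of log2(CPM + 0.5) over the 16 polyA females, among 8910 genes with a mean log2 level of at least 3. The correlation is a description, since all females of a stage share its change. Most like Cdk1 were Naa38, Atp5h and Cox4i1 (r = 1.00 each after rounding). Cox4i1, a subunit of cytochrome c oxidase, went from a geometric mean of 467 CPM in GV controls to 9.63 CPM in MII controls. Most like Ccnb1 were Ergic2, Mphosph6 and Fbxl6 (r = 0.98 each), and most like Wee2 were Cdc42se2, Ptprr and Yipf4 (r = 0.98 each).

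Most like Cdc25b were Zfand3 (r = 0.95), Calm2 (r = 0.92) and Polr2b (r = 0.90). Calm2, 1 of the calmodulin genes, shared the low level in MII controls, at a geometric mean of 56.5 CPM there against 284 CPM in MII cKO eggs and 275 CPM in GV controls. Polr2b, a subunit of RNA polymerase II, stood at 78.3, 185 and 159 CPM in the same groups.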

How the data were processed

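Per the labels' protocols, the authors pulled polyadenylated RNA out of single-oocyte lysates with oligo(dT) beads, amplified the cDNA and made Nextera libraries. RiboMinus libraries were made with random hexamers in the Ovation Solo workflow, per the same protocols. The files deposited by the authors give unnormalized read counts for each Ensembl gene ID, with 1 library in each. The submitters' processing notes name cutadapt 2.5, FastQC 0.11.8, STAR 2.7.2a, SAMtools 1.9, HTSeq 0.9.1, R 3.5.1, DESeq2 1.24.0 and the build mm10. Strand setting and duplicate removal are not given in the sources used here. Each file ends with 5 summary lines (8.43 to 17.0% of reads), left out of totals and tests; their share by group stands in the results. Of 108 samples, 86 gene count files (64 polyA, 22 RiboMinus) in 10 groups were used, and ribosomal RNA files were not.

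Groups and females came from the titles. Counts were summed per female, because genotype and stage do not vary within a female, filtered with filterByExpr, scaled with TMM and tested two-sided with edgeR 4.0.16 in R 4.3.3 (glmQLFit, glmQLFTest, 1 mean per group). The SE is the difference divided by the square root of F. Few females per group limit the precision, with 10 residual degrees of freedom in the polyA fit and 3 in the RiboMinus fit, where the lone MII control female is assumed to vary like the others. In total 16 comparisons were made: 5 of genotype, 6 of stage and 5 interactions. The scripts were tested on simulated data with less spread between females than the real fits. Those had a common coefficient of variation of 0.369 (polyA) and 0.585 (RiboMinus). The simulation therefore does not give the error rates of these fits.

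Alternatives were each oocyte as a replicate, DESeq2 1.42.0, DESeq2 size factors, library totals, no filter on low counts, only the groups compared, and leaving out each female. V1145 could not be left out, as the only female of its group. Leaving the deepest RiboMinus library out of its female's sum was chosen after seeing the data. The text names all 10 members, some of the 22 other switch genes, each in a comparison where it was called, and the 3 genes most like 1 member per role. Somatic markers were named after their values were seen. Members and lists were chosen with earlier results of these data known. Coordinates and exon lengths are from GENCODE M21 on GRCm38, in which 55480 of the 55573 IDs were found, and the transcript for each 3′ end was the best-ranked APPRIS principal one with the longest 3′UTR.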

Additional observations from a re-analysis of the deposited data

Results flagged for a closer look

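In 5 of the 60 combinations of a member and a group of 4 to 10 oocytes, 1 oocyte stood apart from the others by Dixon's test. Chance gives about 1 in 20 such combinations where the oocytes are independent, which oocytes that share a female are not, so the count is a description. Cdk1 was highest at 172 CPM in a polyA GV3h control oocyte (next highest 153 CPM) and lowest at 34.3 CPM in a RiboMinus GV cKO oocyte (next lowest 64.6 CPM). Ccnb2 reached 360 CPM in a polyA MII control egg (next 257 CPM). Ccnb3 was lowest at 8.29 CPM in a RiboMinus GV control oocyte (next 11.6 CPM). Cdc25c reached 33.2 CPM in a polyA GV3h control oocyte (next 23.8 CPM).

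The change from GV to MII differed between polyA and RiboMinus libraries for 8 values, by the interaction of stage and library type in edgeR's quasi-likelihood test. In controls these were Cdk1 (−4.88), Cdc25b (−2.45), Ccnb1 (1.95) and Ccnb2 (1.33). In cKO they were Cdk1 (−2.52), Ccnb1 (2.81), Ccnb2 (1.77) and Ccnb3 (2.23). The length of the poly(A) tails was not measured.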

How the results depend on the processing

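Of the 31 called member values, 18 kept their call and direction under every alternative, and 0 of the 31 changed sign. No alternative left out V1145, on which every value with the RiboMinus MII controls rests. The number of members called moved by over 1.5 times as follows. With each oocyte as a replicate it was 2 at polyA GV between genotypes (1 on female sums), 1 for polyA cKO from GV to GV3h (0), 4 for the polyA interaction of GV to MII with genotype (0), 3 at RiboMinus GV (0), 5 at RiboMinus MII (1), 2 for RiboMinus controls from GV to MII (0), 6 for RiboMinus cKO (1), 4 for the RiboMinus interaction (0), and 7 for both interactions with library type (4 each). The shares of all genes called by the same fit were 35.8, 1.57, 16.9, 25.8, 34.6, 19.4, 22.4, 14.8, 43.3 and 43.7% in that order. With no filter on low counts it was 2 at polyA GV, 2 for the polyA interaction, 3 at RiboMinus GV, 3 at RiboMinus MII, and 2 for each RiboMinus stage change and for the RiboMinus interaction, beside 5.94, 2.94, 4.74, 11.9, 3.09, 7.52 and 2.89% of all genes. DESeq2 gave 2, 2, 3, 2, 2, 3 and 1 for the same comparisons in that order, beside 14.2, 5.84, 6.19, 20.6, 6.08, 11.5 and 4.43%. Library totals gave 2 at polyA GV (7.38%). Fitting only the groups compared gave 0 at polyA GV, 2 at RiboMinus MII, 3 for RiboMinus controls and 0 for RiboMinus cKO from GV to MII, beside 0.00555, 7.54, 27.9 and 0.0%. Without the deepest library there were 0 at RiboMinus MII and 0 for RiboMinus cKO from GV to MII, beside 3.63 and 0.118%. Leaving out each female gave 0 to 2 at polyA GV, 0 to 1 for the polyA interaction, 0 to 2 at RiboMinus GV, 1 to 2 at RiboMinus MII and 0 to 2 for RiboMinus cKO. The cause was not tested.

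Over all genes, taking each oocyte as a replicate called 5798 at polyA GV (1420 on female sums), 6500 at polyA MII (3644), 4922 at RiboMinus GV (8) and 6620 at RiboMinus MII (1857). DESeq2 called 2729 at polyA GV, 1573 at RiboMinus GV and 5228 at RiboMinus MII. For GV to MII it called 1545 in RiboMinus controls (2 in edgeR), 2925 in RiboMinus cKO (591), 1121 for the polyA interaction with genotype (373) and 1127 for the RiboMinus one (0). Fitting only the groups compared called 1 at polyA GV and 5732 in RiboMinus controls from GV to MII. Without the deepest library 895 were called at RiboMinus MII and 29 in RiboMinus cKO from GV to MII. Library totals moved the median of all genes at polyA GV from 0.08 to 0.27 and the split of calls from 667 higher and 753 lower to 1054 and 367. From GV to MII in polyA controls they moved the split from 3230 higher and 4952 lower to 1790 and 6594. No paired analysis was possible because each female gave oocytes of 1 genotype and 1 stage, and oocyte numbers only name oocytes within a female.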
